A study of Homo sapiens with 23 samples.

Results

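The genes of oxidative phosphorylation were followed in thalamus organoids (ThOs) from libraries labelled wild type (WT), c-JUN knockout (KO) and KO with c-JUN expressed again (OE). Members were chosen by symbol: NDUF genes of complex I, SDHA to SDHD of complex II, UQCR genes and CYC1 of complex III, CYCS, numbered COX genes of complex IV, ATP5 genes of complex V, and MT- genes of the mitochondrial genome. Of 9497 genes listed, 80 matched. Of these, 78 encode proteins, and the other 2, NDUFA6-DT and NDUFV1-DT, are divergent transcripts that share a name with a subunit but are not one. No listed gene lies on the mitochondrial genome, so nuclear and mitochondrially encoded subunits were not compared here.

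Oxidative phosphorylation makes most of the ATP of a resting neuron. Complexes I and II pass electrons from NADH and succinate to ubiquinone, complex III passes them to cytochrome c, and complex IV passes them to oxygen. Complexes I, III and IV pump protons across the inner membrane, and complex V, the ATP synthase, uses the gradient to make ATP. All but complex II are built from products of both genomes, and neural progenitors are known to lean more on glycolysis than the neurons they give rise to.

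The organoids were grown from H1 human embryonic stem cells, an established line. By the labels and the study's methods, WT organoids were unmodified, KO organoids carried a knockout of c-JUN, and OE organoids carried the knockout and a doxycycline-inducible c-JUN construct. Each genotype was sampled at day 25 and day 30, with 2 libraries in each of 6 groups and organoids pooled in each library. The pool was taken as 3 organoids. The paper's methods give 3 ThOs for ATAC-seq and CUT&Tag, and describe pooling for RNA-seq with cerebral organoids. The study made more than 1 KO line, and the line behind each library was not given in the sources used here. Whether WT and KO organoids also received doxycycline was not given either, so its effect and that of c-JUN cannot be told apart in OE. The study's methods speak of separate batches for its experiments in general, but the labels do not tie the 2 libraries of a group to separate cultures, so p-values measure the spread between these libraries, which may be technical.

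Values are the authors' normalized expression score, rounded to whole numbers. Whether the score allows for gene length was not stated, so levels were compared within a gene and never between genes. Every library had a median of 106 over its genes, the smallest value was 11, and depth could not be recovered. Genes near the bottom of this scale, or absent from the tables, may have been removed before deposit. Library weights and replicate spread set the KO libraries apart: the median difference between replicates over all genes was 0.46 on the log2 scale at day 25 and 0.52 at day 30 in KO, against 0.20 to 0.26 in the 4 other groups. JUN itself read 128 to 162 in WT, 196 to 353 in the libraries labelled KO and 202 to 362 in OE. The transcript was thus higher, not lower, in all 4 libraries labelled KO than in all 4 WT libraries (exact permutation test, two-sided, p = 0.0286, the smallest that 4 against 4 allows). JUN did not separate OE from KO (log2 difference -0.03, exact permutation test p = 0.886). For its KO lines the study reported no c-JUN protein by western blot, and no c-JUN mRNA by RT-qPCR during neural induction. It also reported c-JUN protein after induction in KO lines. Those tests were not of these libraries, and a transcript score does not measure protein. KO and OE are therefore used below as labels. Of the markers fixed for these cells, the tables listed 2 of 6 for thalamus (TCF7L2 and LHX9), 8 of 8 for neurons, 5 of 7 for neural progenitors, 7 of 8 for choroid plexus and roof plate, 2 of 6 for mesenchyme, 6 of 6 for proliferation, 0 of 4 for pluripotent cells and 0 of 3 for endothelium.

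The members covered most of the nuclear machinery. Of 78 known nuclear core and accessory subunits, 67 were listed: 29 of 37 for complex I, 4 of 4 for complex II, 8 of 9 for complex III, 11 of 11 for complex IV and 15 of 17 for complex V. The tables also held CYCS, the complex V inhibitor ATP5IF1, 4 of 8 complex I assembly factors and 5 of 10 complex IV assembly factors that the naming covers. None of the 7 tissue isoforms of complex IV (COX4I2, COX6A2, COX6B2, COX7A1, COX7B2, COX8C and NDUFA4L2) was listed, and neither was the paralogue UQCRHL, so only the ubiquitous forms could be followed. Many of these genes have processed pseudogenes or close paralogues, and how the authors' counting split such reads was not stated, which leaves small subunits such as ATP5MJ, COX7B, COX14 and NDUFB1 less certain than the values alone show.

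The 300 bases around each RefSeq start (GRCh38.p14, 250 before and 50 after) were available for 66 of the members. Matches to 2 motifs are shown because they bear on the comparison: letters like those of AP-1, the site that c-JUN dimers bind, and the core of NRF1. NRF1 is a factor long known for activating respiratory chain genes. AP-1 was searched as TGANTCA, with any base at N, and the NRF1 core as CGCATGCG, on both strands. A free middle base is looser than the usual AP-1 site. Each line gives 30 bases on the gene's own strand, 5′ to 3′, with the match in capitals.
NDUFB3, AP-1, chr2:201071906-201071935, plus strand: tagtctctaccTGATTCAggaatctctaac
COX7C, AP-1, chr5:86617740-86617769, plus strand: actgcttcactTGATTCAataaaatcgttt
NDUFA8, NRF1 core, chr9:122159764-122159793, minus strand: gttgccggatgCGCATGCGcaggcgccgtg
NDUFS7, NRF1 core, chr19:1383822-1383851, plus strand: gttccggtttcCGCATGCGctccgagccgc
SDHD, NRF1 core, chr11:112086753-112086782, plus strand: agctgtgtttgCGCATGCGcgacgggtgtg
COX6A1, NRF1 core, chr12:120437883-120437912, plus strand: cggagggcacaCGCATGCGcacgaaggaaa
ATP5F1C, NRF1 core, chr10:7788145-7788174, plus strand: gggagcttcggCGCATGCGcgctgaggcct
ATP5MC2, NRF1 core, chr12:53676106-53676135, minus strand: ggcccgggtcaCGCATGCGctgagccttcc

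The AP-1 letters were found in 2 of 66 members (3.03%), against 3.86% of 7817 listed genes and 7.76% of all 27305 RefSeq promoters. Both matches read TGATTCA, which is not the usual AP-1 site, and the shares include such looser letters. The NRF1 core was found in 6 of 66 (9.09%), against 4.17% and 2.19%. The ETS letters CCGGAAGT were found in 10 members (15.2%, against 9.56% and 4.44%), and ATGGCGG, the core that YY1 binds, in 18 (27.3%, against 11.3% and 5.72%). CCAAT was found in 26 members (39.4%), close to the 38% of listed genes and 35.7% of all promoters. These are matches of letters and not measured sites. NDUFA8, NDUFS7, COX6A1 and ATP5MC2 return below, since they are among the members whose libraries separated between genotypes.

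In 2 cases a pair of members shares its start region. NDUFA6 (chr22:42085526-42090884, minus strand) and NDUFA6-DT (chr22:42090931-42137742, plus strand) run apart from the 46 bases between them, shown to mark how close the 2 transcripts start.
NDUFA6 and NDUFA6-DT, chr22:42090885-42090930, plus strand: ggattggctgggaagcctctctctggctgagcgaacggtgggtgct
NDUFV1 (chr11:67605653-67612554, plus strand) and NDUFV1-DT (chr11:67602880-67606706, minus strand) overlap over 1054 bases. The library kit keeps strand, but whether counting used it was not stated, so reads in the overlap may have gone to either gene.

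Single libraries moved the members together, and this has to be seen before the groups are compared. WT day 25 replicate 1 held the lowest of the 12 values for 40 of the 78 protein-coding members (51.3%), where 11.0% of all genes were lowest there. KO day 25 replicate 2 held the highest value for 24 (30.8%, against 14.7% of all genes). The 2 OE day 30 libraries held the highest value for 16 and 15, and KO day 30 replicate 2 for 16, although that library also held the lowest for 13.

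Each gene's deviation from its own mean over the 12 libraries, on the log2(value + 1) scale, gives the level of a complex in a library. In WT day 25 replicate 1 the median deviation was -0.51 over the 33 complex I genes, -0.16 over the 4 of complex II, -0.33 over the 8 of complex III, -0.85 over the 16 of complex IV and -0.64 over the 16 of complex V. In its partner, WT day 25 replicate 2, the same medians lay between -0.14 and -0.10. KO day 25 replicate 1 lay between -0.46 and -0.06 and KO day 25 replicate 2 between 0.26 and 0.44. Replicate 1 was the lower library of both pairs in each complex.

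The shift was not limited to these genes. In WT day 25 replicate 1 the median deviation was -0.31 over 56 mitochondrial ribosome genes, -0.29 over 17 genes of the tricarboxylic acid cycle, -0.37 over 21 glycolysis genes and -0.50 over 80 cytosolic ribosomal protein genes, with -0.00 over all genes. In KO day 25 replicate 2 the mitochondrial ribosome stood at 0.16, the cycle at 0.13, glycolysis at 0.02 and cytosolic ribosomal proteins at -0.03. The members span a median of 12620 bases of genome, against 39480 for all genes, and the 2375 genes with the shortest span, 49 of them members, lay at -0.09 in WT day 25 replicate 1. The part of gene length, RNA quality or cell composition in these shifts was not tested.

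**Figure D1:**
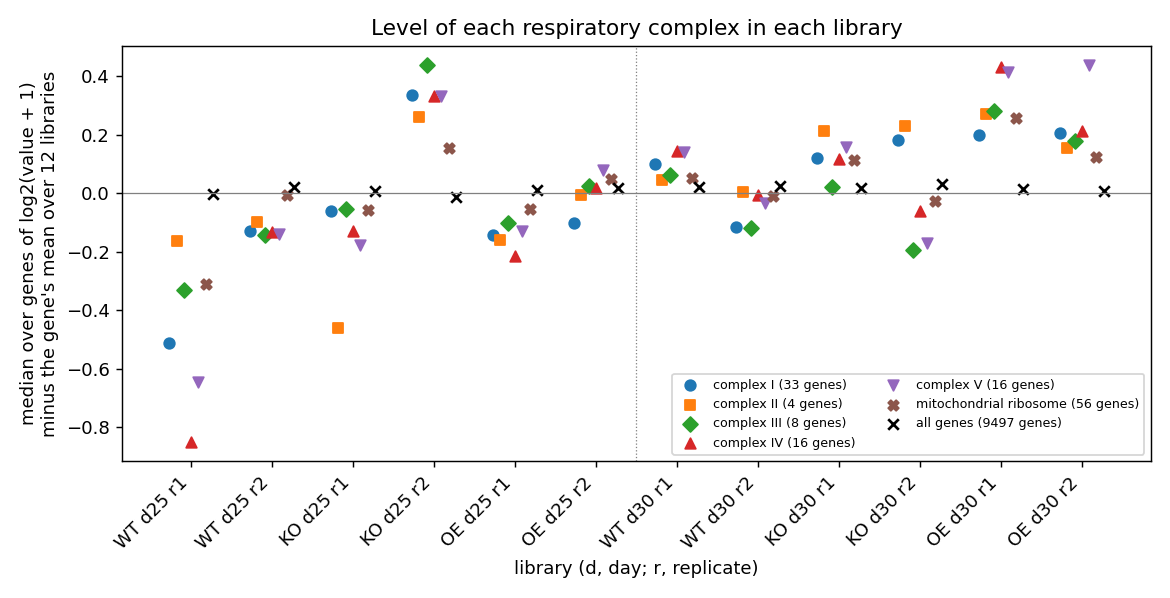
Median deviation of each complex, the mitochondrial ribosome and all genes in each of the 12 libraries (y axis, log2 scale, each gene set against its own mean; x axis, library). WT day 25 replicate 1 lies lowest for complexes I, III, IV and V, from -0.33 to -0.85, while all genes stay near 0 in every library.

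The replicate difference was one-sided in both day 25 groups where it was large. Of 78 protein-coding members, 61 were higher in replicate 2 of WT day 25, by a median of 0.41, and 14 differed by 2-fold or more (17.9%, against 4.45% of all genes). In KO day 25, 61 were also higher in replicate 2, by a median of 0.45, and 12 were 2-fold apart (15.4%, against 17.4% of all genes). In KO day 30, 13 were 2-fold apart but in both directions, and the median difference was -0.14. None was 2-fold apart in OE day 25, WT day 30 or OE day 30.

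The members 2-fold apart in KO included core subunits. SDHB, the iron-sulfur subunit of complex II, read 23 and 130 in the 2 KO libraries of day 25. NDUFV2, which carries an iron-sulfur cluster of complex I, read 37 and 109 there, and ATP5F1D, a subunit of the central stalk of complex V, read 122 and 42. At day 30 ATP5MJ, a small subunit of complex V, read 116 and 20, and COX8A, a small subunit of complex IV, read 152 and 37.

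**Figure D2:**
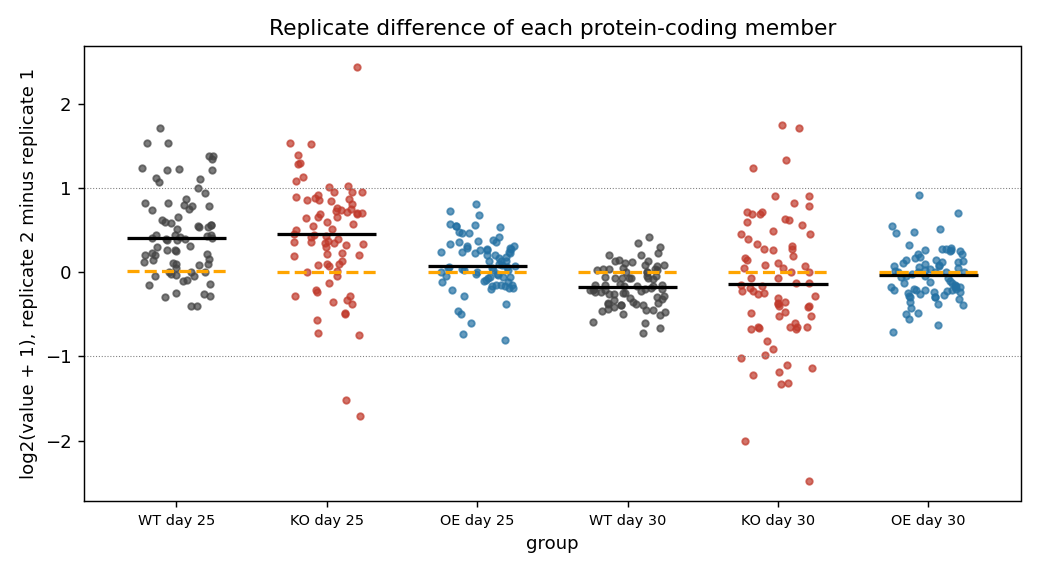
Difference between replicate 2 and replicate 1 on the log2(value + 1) scale (y axis) for each of the 78 protein-coding members in the 6 groups (x axis). Black lines are the members' medians, 0.41 in WT day 25 and 0.45 in KO day 25, orange dashed lines the medians of all genes, and dotted lines mark 2-fold.

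In the libraries labelled KO, most members lay above WT, by small amounts and with none past the test. Over both days 65 of 80 members were higher, with a median log2 fold change of 0.22, where the median of all genes was -0.02. By complex, the median was 0.23 for complex I (30 of 33 higher), 0.16 for complex II (2 of 4), 0.03 for complex III (5 of 8), 0.23 for complex IV (14 of 16) and 0.22 for complex V (11 of 16). The mitochondrial ribosome lay at 0.13 (41 of 56 higher), the tricarboxylic acid cycle at 0.16 (14 of 17) and cytosolic ribosomal proteins at -0.14 (26 of 80).

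By limma with Benjamini-Hochberg adjustment over all 9497 genes, 0 of 80 members passed an adjusted p of 0.05, where 0.0211% of all genes did. At an unadjusted p under 0.05, 9 members were higher and 1 lower, where 7.01% of all genes were higher and 8.15% lower. Leaving out WT day 25 replicate 1 gave 54 higher members and a median of 0.10, and leaving out KO day 25 replicate 2 gave 53 and 0.12. Without KO day 30 replicate 1, 10 members passed (12.5%, 9 higher and 1 lower), where 13.8% of all genes did in the same fit, with the remaining KO day 30 library taken to vary like the other groups.

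The largest differences were in 2 subunits of complex I. NDUFA8, an accessory subunit that faces the intermembrane space, read 24 and 41 in WT day 25, 48 and 30 in WT day 30, 100 and 158 in KO day 25, and 62 and 111 in KO day 30. All 4 libraries labelled KO lay above all 4 WT libraries. The log2 fold change was 1.54 ± 0.30 (SE, n = 4 against 4, limma adjusted p = 0.13), and it was 1.14 to 1.75 over 19 alternatives. An exact permutation test of this gene alone gave p = 0.0286, as it does for any 4 against 4 libraries without overlap. The gene was picked for its large difference, so that p restates the lack of overlap and adds no support.

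NDUFS7, a core subunit that carries the last iron-sulfur cluster before ubiquinone, read 40 and 88 in WT day 25, 109 and 104 in WT day 30, 249 and 178 in KO day 25, and 139 and 196 in KO day 30. Again the groups did not overlap. The log2 fold change was 1.22 ± 0.25 (limma adjusted p = 0.13), and the value of 40 came from WT day 25 replicate 1.

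COX14, an assembly factor that guides the first steps of complex IV, read 14 and 34 in WT day 25, 28 and 38 in WT day 30, 64 and 62 in KO day 25, and 36 and 124 in KO day 30. The lower KO day 30 library lay inside the WT range. Its log2 fold change was 1.25 ± 0.40 (limma adjusted p = 0.21).

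NDUFB6, an accessory subunit of the membrane arm of complex I, differed by 1.10 ± 0.38, with WT between 14 and 22 and KO between 20 and 68. COX7B, an accessory subunit of complex IV, differed by 0.82 ± 0.25 and read 82 to 133 in WT and 129 to 306 in KO. For both genes 1 library labelled KO reached down into the WT range, and the limma adjusted p was 0.23 for NDUFB6 and 0.20 for COX7B.

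Of the 15 members that lay lower in the libraries labelled KO, 5 belonged to complex V. The lowest fold changes were those of some small subunits of its membrane part. Another small subunit of complex V, ATP5MG, lay the other way, with a median of 69 in WT and 108.5 in KO. The log2 fold change was -0.64 for ATP5MF, -0.57 for ATP5MK and -0.54 for ATP5MJ, followed by -0.32 for the complex IV assembly factor COX20 and -0.17 for NDUFB1 of complex I. ATP5MK was lowest in both KO libraries of day 25, at 32 in each, with WT at 38 to 78 over both days. ATP5MJ rested on 1 library: it read 20 in KO day 30 replicate 2 and 74 to 121 in the 3 other libraries labelled KO, against 83 to 132 in WT, and without that library its log2 fold change was 0.08.

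In 4 of 80 members (5%) all libraries labelled KO lay above all WT libraries: NDUFA8, NDUFS7, COX6A1 and UQCRB. The share over all genes was 2.74%. In 0 of 80 did they all lie below, where 3.14% of all genes did. COX6A1, the ubiquitous form of a complex IV subunit, read 148 to 290 in WT and 296 to 360 in KO. UQCRB, a ubiquinone-binding subunit of complex III, read 96 to 118 in WT and 132 to 204 in KO. Of the 4, NDUFA8, NDUFS7 and COX6A1 hold the NRF1 core printed above, an overlap seen after their values were known. The other 3 members with that core, SDHD, ATP5F1C and ATP5MC2, had log2 fold changes of 0.37, 0.34 and 0.32, and the 2 with AP-1 letters, NDUFB3 and COX7C, 0.39 and 0.16.

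**Figure D3:**
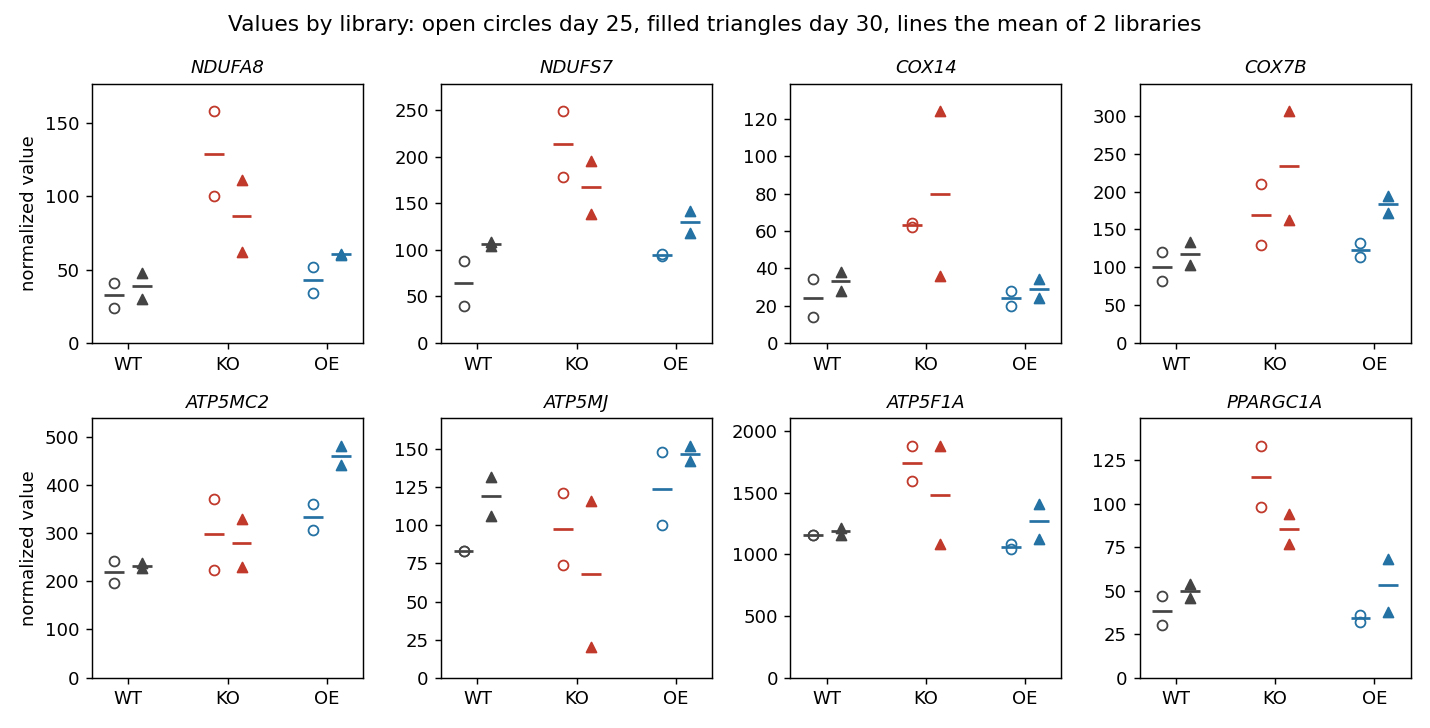
Normalized values (y axis, from 0) of 7 members and of PPARGC1A in every library by genotype (x axis); open circles are day 25, filled triangles day 30 and lines the mean of the 2 libraries. All 4 KO points lie above all WT points for NDUFA8, NDUFS7 and PPARGC1A, and 1 KO point of ATP5MJ lies at 20.

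The difference lay mostly at day 25. There 63 of 80 members were higher in KO, with a median of 0.44, and the medians were 0.47 for complex I (26 of 33 higher), 0.27 for complex III (6 of 8), 0.49 for complex IV (13 of 16) and 0.39 for complex V (14 of 16). Complex II stood at 0.12, with 2 of 4 higher. Assembly factors had a median of -0.03, with 4 of 9 higher. None of 80 members passed the adjusted limma threshold, where 0.0105% of all genes did. At an unadjusted p under 0.05, 18 were higher and 1 lower, against 6.03% and 7.39% of all genes. Leaving out WT day 25 replicate 1 put the median at 0.19, and leaving out replicate 2 or 1 of KO day 25 put it at 0.23 or 0.65.

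COX6B1, an accessory subunit at the intermembrane face of complex IV, shows what 1 library can do. It read 45 and 133 in WT day 25 against 220 and 222 in KO, a log2 fold change of 1.50 ± 0.41 (limma adjusted p = 0.19). At day 30 it read 195 and 170 in WT and 199 and 127 in KO.

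At day 30, 45 of 80 members were higher in KO and the median was 0.07. That median was -0.05 with WT day 30 replicate 2 left out and 0.16 with WT day 30 replicate 1 left out, so its sign rested on single libraries. By limma 0 members passed, as in 0.0% of all genes, and 2 had an unadjusted p under 0.05, COX7B and NDUFA8, against 7.36% of all genes. Without KO day 30 replicate 1, 9 members passed, where 13.4% of all genes did in the same fit, with the remaining library of that group assumed to vary like the others. The change of the KO difference from day 25 to day 30 had a median of -0.39 over the members and -0.13 without WT day 25 replicate 1. None of 80 passed by limma (0.0% of all genes), and 8, all lower, had an unadjusted p under 0.05 (5.63% of all genes). Without KO day 30 replicate 1, 3 passed (3.75%, against 1.99% of all genes in that fit): ATP5MJ, COX8A and NDUFB11, an accessory subunit of complex I.

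The 21 core subunits had a median log2 fold change of 0.32 in KO against WT over both days. It was 0.21 over 46 accessory subunits and 0.22 over all members, and no core subunit passed the test. Named with the core subunits below are the accessory subunits UQCRC1, UQCRC2, COX4I1, COX5A and COX5B. In complex I, KO against WT over both days gave log2 fold changes of 0.35 for NDUFS1, 0.12 for NDUFS3, 0.43 for NDUFS8, 0.04 for NDUFV1 and 0.42 for NDUFV2, core subunits of the arm that takes electrons from NADH to ubiquinone. In complex II the flavoprotein SDHA stood at -0.08 and SDHB at -0.00, and the membrane anchors SDHC and SDHD at 0.32 and 0.37. In complex III the Rieske protein UQCRFS1 stood at 0.37, cytochrome c1 (CYC1) at -0.08, and the large subunits UQCRC1 and UQCRC2 at -0.13 and 0.38. CYCS, cytochrome c, stood at 0.16. In complex IV, COX4I1, COX5A and COX5B, which surround the mitochondrially encoded core, stood at 0.32, -0.17 and 0.41.

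ATP5F1A and ATP5F1B form the catalytic head of complex V and ATP5F1C its rotating shaft. ATP5F1A read 1158 and 1158 in WT day 25, 1214 and 1158 in WT day 30, 1599 and 1878 in KO day 25 and 1081 and 1876 in KO day 30. In KO 3 of the 4 values exceeded all WT values and 1 lay below them (log2 fold change 0.42 ± 0.16, limma adjusted p = 0.25). ATP5F1B differed by 0.27 and ATP5F1C by 0.34. ATP5IF1, which blocks the synthase when the gradient fails, differed by 0.16 ± 0.28.

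The libraries labelled OE showed no shared direction of the members against those labelled KO. Over both days 43 of 80 were higher in OE, with a median log2 fold change of 0.06. The medians were -0.02 for complex I, 0.06 for complex II, 0.10 for complex III, 0.12 for complex IV and 0.23 for complex V, against 0.01 over all genes and 0.41 over cytosolic ribosomal proteins (70 of 80 higher).

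By limma 0 of 80 members passed, while 3.3% of all genes did. At an unadjusted p under 0.05, 5 members were higher and 4 lower, against 11.5% and 10.7% of all genes. With KO day 30 replicate 1 left out 12 members passed (15%), where 23% of all genes did in that fit. With KO day 25 replicate 1 left out 1 did (1.25%, against 4.98% of all genes), the catalytic subunit ATP5F1B. Leaving out 1 KO library put the median at -0.13 (day 25 replicate 1), 0.13 (day 25 replicate 2) or -0.03 (day 30 replicate 2). The 2 comparisons share the KO libraries, so the values of OE against KO are not independent of those above.

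The genes with the largest excess in the libraries labelled KO had the lowest fold changes in OE against KO, as comparisons that share those libraries favour. NDUFA8 read 52 and 34 in OE day 25 and 61 and 60 in OE day 30, below all 4 libraries labelled KO by as little as 1 unit (log2 fold change -1.0 ± 0.30, limma adjusted p = 0.088). COX14 read 20, 28, 24 and 34, also below all 4 (-1.29 ± 0.40, adjusted p = 0.098). NDUFS7 read 93, 96, 142 and 118, and its highest OE library exceeded the lowest KO library (-0.75 ± 0.25, adjusted p = 0.12). NDUFB6 (-0.50) and SDHD (-0.50) completed the 5 lowest.

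At the other end stood members of complex V again, with NDUFB1 of complex I and COX8A of complex IV. The log2 fold change was 0.97 ± 0.43 for ATP5MJ, 0.79 ± 0.38 for ATP5MF, 0.65 for NDUFB1, 0.64 for ATP5PD, a subunit of the peripheral stalk, and 0.63 for COX8A. ATP5MJ read 100 to 152 in OE and COX8A 138 to 234, so both differences rest in part on the values of 20 and 37 in KO day 30 replicate 2. Without that library they were 0.35 and 0.13. Over all members, 0 lay wholly above the libraries labelled KO (5.17% of all genes) and 2, COX14 and NDUFA8, wholly below (4.51%).

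The days differed in sign. At day 25 the median was -0.17, with 30 of 80 members higher in OE, and at day 30 it was 0.22, with 53 higher. At day 25 limma called 0 members (0.284% of all genes) and 7, all lower, had an unadjusted p under 0.05 (17.8%). Those 7 were NDUFA8, COX14, NDUFB2, NDUFS7, ATP5MC3, ATP5F1A and NDUFS1. Leaving out KO day 25 replicate 1 put the day 25 median at -0.44, with ATP5F1B past the test (1.25% of members, against 3.21% of all genes), and leaving out its partner put it at -0.03. At day 30 limma called 0 (0.0842%) and 7, all higher, had an unadjusted p under 0.05 (10.9%), and without KO day 30 replicate 1 10 members passed (12.5%, against 17.8% of all genes in that fit).

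OE lay above WT in more members than KO did, again by small amounts. Over both days 71 of 80 were higher, with a median log2 fold change of 0.25 against 0.00 for all genes. The medians were 0.22 for complex I (31 of 33 higher), 0.19 for complex II (3 of 4), 0.21 for complex III (7 of 8), 0.31 for complex IV (13 of 16) and 0.30 for complex V (15 of 16). Accessory subunits were higher in 44 of 46 and core subunits in 19 of 21, but assembly factors in 5 of 9. Cytosolic ribosomal proteins lay at 0.26, with 72 of 80 higher, and the mitochondrial ribosome at 0.17, with 47 of 56.

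By limma 0 of 80 passed (0.211% of all genes). At an unadjusted p under 0.05, 8 members were higher and 0 lower, against 3.53% and 4.69% of all genes. Without WT day 25 replicate 1, 60 were higher, the median was 0.12 and 3 had an unadjusted p under 0.05.

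ATP5MC2 stood out. It is 1 of 3 genes that encode the same mature c subunit of the ATP synthase ring. It read 196 and 242 in WT day 25, 238 and 227 in WT day 30, 306 and 360 in OE day 25 and 480 and 441 in OE day 30. All OE libraries lay above all WT libraries (log2 fold change 0.79 ± 0.19, limma adjusted p = 0.18, exact permutation test p = 0.0286). The exact p only restates that lack of overlap, in a gene picked for its large difference. The log2 fold change was 0.72 to 0.87 over the alternatives. The limma adjusted p was 0.00705 with library weights and 0.0161 when only the WT and OE libraries were fitted.

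Its paralogues differed less. ATP5MC1 read 30 to 66 in WT, 46 to 78 in KO and 48 to 82 in OE, and ATP5MC3 read 92 to 173, 150 to 300 and 120 to 219. Against WT, OE differed by 0.46 in ATP5MC1 and 0.24 in ATP5MC3, while KO differed by 0.32 in ATP5MC1, 0.32 in ATP5MC2 and 0.50 in ATP5MC3. OE against KO was 0.47 in ATP5MC2 and -0.26 in ATP5MC3. The difference between the paralogues was not tested.

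The other large differences in OE against WT were 0.78 ± 0.29 in COX6B1, 0.75 ± 0.25 in ATP5MG, a small subunit of complex V, 0.74 ± 0.30 in ATP5PD and 0.67 in COX8A. ATP5PD sits where high values share a few steps: 4 libraries read 3456, its highest, and WT day 25 replicate 1 read 823, its lowest, with the next at 1608. The lowest were -0.29 in NDUFV3, -0.23 in NDUFV1-DT, -0.17 in COX20, -0.13 in SDHD and -0.09 in COX16, an assembly factor of complex IV.

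ATP5MC2 and NDUFA6, an accessory subunit of complex I, were the 2 of 80 wholly above WT (4.13% of all genes). NDUFV3, an accessory subunit near the NADH site, was the 1 wholly below (4.34%), with WT at 78 to 94 and OE at 61 to 75. NDUFA6 read 80 to 122 in WT and 127 to 153 in OE, and its divergent partner NDUFA6-DT 20 to 40 and 34 to 42.

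By day, OE against WT gave a median of 0.27 at day 25 (65 of 80 higher) and 0.27 at day 30 (70 of 80). Limma called 0 members at day 25 (0.0% of all genes) and 0 at day 30 (0.0316%), and 3 and 4 had an unadjusted p under 0.05 (4.18% and 4.07% of all genes). The day 25 median was 0.01 without WT day 25 replicate 1 and 0.46 without WT day 25 replicate 2. The day 30 median was 0.16 to 0.33 with any 1 of its 4 libraries left out, so there the direction did not depend on a single library.

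From day 25 to day 30, averaged over genotypes, 68 of 80 members were higher, with a median log2 fold change of 0.23 against 0.01 for all genes. It was 0.14 for complex I, 0.24 for complex II, 0.14 for complex III, 0.32 for complex IV and 0.31 for complex V. The tricarboxylic acid cycle stood at 0.19, glycolysis genes at 0.30 and cytosolic ribosomal proteins at 0.26, so the members did not stand alone.

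Limma called 0 members (0.0% of all genes). At an unadjusted p under 0.05, 8 were higher and 1 lower, against 5.76% and 5.54% of all genes. Leaving out replicate 1 of WT day 25 or of KO day 25 put the median at 0.13 or 0.12. With KO day 30 replicate 1 left out it was 0.20 and 1 member passed (1.25%, against 1.48% of all genes in that fit), NDUFC2, an accessory subunit of complex I.

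ATP5F1E, the smallest subunit of the central stalk, had the largest difference, 0.87 ± 0.20 (limma adjusted p = 0.22). It read 38 and 56 in WT day 25 and 102 and 106 in WT day 30, 84 and 50 and then 128 and 140 in OE, but 70 and 42 and then 83 and 64 in KO. In WT and OE both later libraries exceeded both earlier ones, and in KO the days overlapped. NDUFS5, an accessory subunit of complex I, differed by 0.78 ± 0.17 (limma adjusted p = 0.20). It read 48 and 84 in WT, 72 and 83 in KO and 75 and 89 in OE at day 25, and 104 and 90, 136 and 136, and 144 and 168 at day 30. Day 30 exceeded day 25 in every genotype.

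SDHB (0.70 ± 0.37), NDUFC2 (0.62 ± 0.17) and ATP5MG (0.61 ± 0.20) followed. The lowest were NDUFV1-DT at -0.59, UQCRC1 at -0.23, NDUFA9 and NDUFB3 at -0.11, and COX15, an assembly factor that makes heme A, at -0.08. NDUFV1-DT read 134 and 46 in WT day 25, so its difference too leaned on replicate 1 of that group. NDUFV1 on the other strand stood at 0.14.

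**Figure D4:**
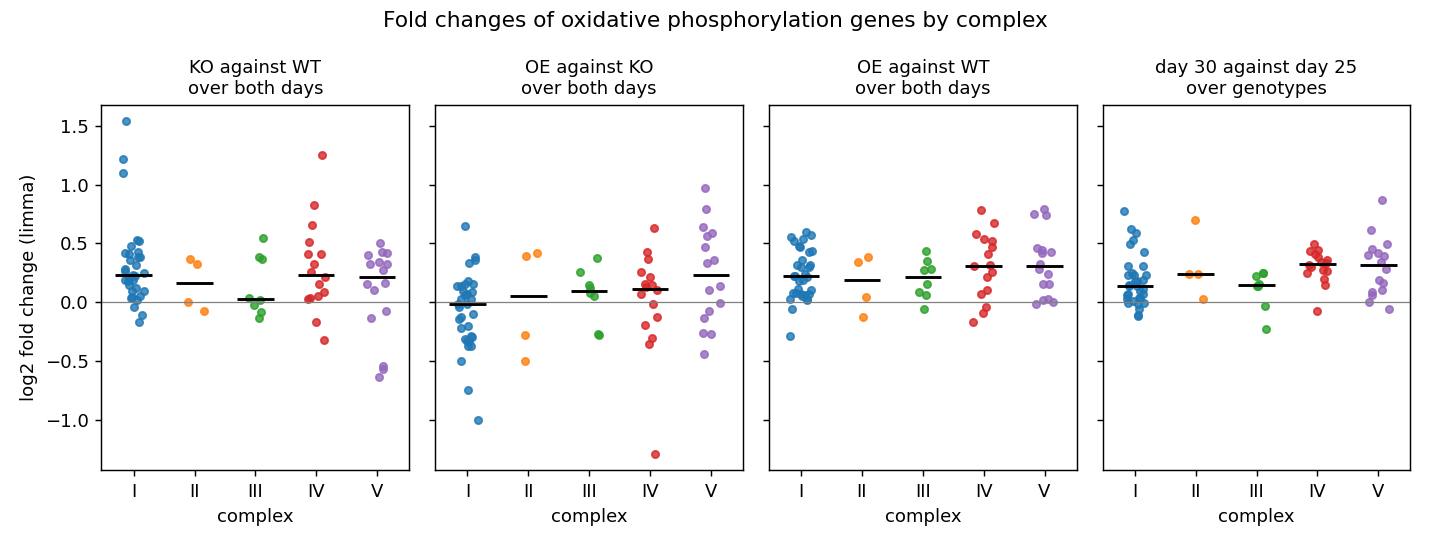
Log2 fold change from limma (y axis) of each member by complex (x axis) in the 4 comparisons over both days or genotypes; points are genes and black lines medians. Medians of complexes I to V run from 0.03 to 0.23 for KO against WT, from -0.02 to 0.23 for OE against KO, from 0.19 to 0.31 for OE against WT and from 0.14 to 0.32 for the days.

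Paralogue pairs could be followed only where both were listed. COX7A2, a complex IV subunit, read 40 to 123 in WT, 67 to 178 in KO and 98 to 141 in OE, and COX7A2L, which joins complexes III and IV, 114 to 168, 83 to 188 and 126 to 208. Their log2 fold changes in KO against WT were 0.26 and 0.05. Of the other sets only the common form was listed. NDUFA4, now counted with complex IV, read 54 in WT day 25 replicate 1 and 128 to 221 in all other libraries. UQCRH, the hinge protein of complex III, read 65 to 96 in WT, 54 to 101 in KO and 78 to 122 in OE.

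The regulators and neighbours of the pathway were taken from fixed lists. Of 19 biogenesis regulators, 10 were listed. PPARGC1A, which encodes PGC-1α, the coactivator that drives mitochondrial biogenesis through NRF1 and related factors, read 47 and 30 in WT day 25, 54 and 46 in WT day 30, 98 and 133 in KO day 25, 77 and 94 in KO day 30, 36 and 32 in OE day 25 and 68 and 38 in OE day 30. All 4 libraries labelled KO lay above all 8 others. Of all genes, 2.74% lay wholly higher in KO than in WT, and 4.51% wholly lower in OE than in KO. PPARGC1A was lower in OE than in KO by limma (log2 fold change -1.23 ± 0.26, adjusted p = 0.033), where 3.3% of all genes passed. In KO against WT its difference was 1.17 ± 0.26 (adjusted p = 0.15). The adjusted p for OE against KO ran from 0.010 to 0.16 over 19 alternatives and passed in 11. It was 0.11 with library weights, 0.094 with only the libraries compared, and with 1 library left out it was 0.06 (KO day 25 replicate 2), 0.09 (OE day 25 replicate 1), 0.14 (OE day 25 replicate 2), 0.077 (KO day 30 replicate 2) and 0.16 (OE day 30 replicate 2).

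The rest of that list did not pass. YY1, whose core motif was counted above, differed by -0.50 in KO against WT and 0.53 in OE against KO, and the PGC-1-related coactivator PPRC1 by -0.60 and 0.68. The mitochondrial polymerase POLG differed by 0.34 in KO against WT, and the helicase TWNK by -0.28 in OE against KO and -0.37 in OE against WT. TFAM, which packages mitochondrial DNA, and the single-strand binding protein SSBP1 differed by 0.30 and 0.48 between the days.

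Of 21 glycolysis genes, all listed, PDK1 alone passed in OE against KO, where 3.3% of all genes did. It encodes a kinase that switches off pyruvate dehydrogenase. It read 52 and 38 in WT day 25, 28 and 16 in KO day 25, 90 and 102 in OE day 25, 92 and 124 in WT day 30, 114 and 74 in KO day 30 and 88 and 141 in OE day 30. The log2 fold change was 1.20 ± 0.27 (limma adjusted p = 0.039). At day 25 alone it was 2.12 ± 0.38 (limma adjusted p = 0.049), where 0.284% of all genes passed. The adjusted p over both days ran from 0.0086 to 0.19 over 19 alternatives and passed in 10. It was 0.056 with the replicate block, 0.10 with library weights, 0.11 with only the libraries compared, and 0.069, 0.10, 0.16, 0.099 and 0.19 without KO day 25 replicate 2, OE day 25 replicate 1, OE day 25 replicate 2, KO day 30 replicate 2 and OE day 30 replicate 2.

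SLC2A1, a main glucose transporter, read 158 and 112 in KO day 25 and 168 in KO day 30 replicate 2, but 804 in KO day 30 replicate 1, against 370 to 849 in WT and 527 to 649 in OE. Its log2 fold change was 1.39 ± 0.37 in OE against KO (adjusted p = 0.066) and -1.37 in KO against WT. PDK4 differed by -1.05 in OE against KO and HK2 by 1.06 between the days. PFKL differed by 0.48 in KO against WT, and ALDOC by 0.68 in OE against WT.

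The lists of carriers, the cycle, assembly factors and the mitochondrial ribosome held no gene past the test in KO against WT, OE against KO or OE against WT over both days, or between the days. Among 7 carriers and porins, VDAC3 differed by 0.64 in KO against WT and -0.48 in OE against KO, and SLC25A4, the adenine nucleotide carrier of heart and muscle, by -0.46 in OE against KO. Among 17 tricarboxylic acid cycle genes, FH differed by 0.85 and -0.62, and IDH3A by -0.68 in OE against KO. Among 30 assembly factors outside the naming rule, SCO1, which brings copper to complex IV, differed by 0.82 and -0.84, and BCS1L, which inserts the Rieske protein into complex III, by -0.65 and 0.85. Among 56 mitochondrial ribosome genes by name, 2 of them non-coding transcripts at MRPL20, MRPL46 differed by 0.98 in KO against WT and MRPS33 by -0.76 in OE against KO. Of 80 cytosolic ribosomal protein genes, 3 passed in OE against KO, all higher, where 3.3% of all genes passed, a similar share.

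Sums of cell markers overlapped between genotypes in most lists, and none was tested. The summed values of 7 hypoxia and glycolysis markers ran from 2355 to 2991 in WT day 25, 2082 to 2397 in KO day 25, 3249 to 4378 in OE day 25, 4499 to 4692 in WT day 30, 1904 to 5553 in KO day 30 and 3931 to 4603 in OE day 30. The 6 proliferation markers summed to 1297 to 1825 in the libraries labelled KO, 1635 to 2328 in WT and 2455 to 2721 in OE. Over both days OE thus lay wholly above both KO and WT, while KO and WT overlapped. The 7 choroid plexus and roof plate markers summed to 1785 to 4468 in WT, 2449 to 5743 in KO and 1641 to 4193 in OE, and the 8 neuron markers to 6268 to 8311, 6818 to 9056 and 6786 to 9753. The 2 thalamus markers summed to 318 to 576 in WT, 227 to 638 in KO and 271 to 949 in OE. The 5 progenitor markers summed to 5459 to 12228 in WT, 3465 to 5785 in KO and 5525 to 6094 in OE, and the 2 mesenchyme markers to 142 to 318, 210 to 874 and 115 to 316. At day 25 alone, some sums in KO lay apart from both WT and OE. Proliferation summed to 1297 to 1458 in KO, 2138 to 2328 in WT and 2530 to 2700 in OE. In the same order, progenitors summed to 3465 to 5352, 5688 to 12228 and 5562 to 6094. Mesenchyme summed to 408 to 874, 293 to 318 and 118 to 208. At day 30 KO and WT overlapped in each of these lists. The part of these markers in the members' differences was not tested, and in pooled organoids fewer cells of a type and less RNA per cell cannot be told apart.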

How the data were processed

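RNA from pooled organoids, taken as 3 per library, was extracted with TRIzol and sequenced with a stranded total RNA kit. The authors deposited 1 normalized score per gene and library, rounded to whole numbers and not counts. The submitters' processing notes name bcl2fastq, RSEM, Bowtie2 and hg19 without roles, but gene positions in the tables are GRCh38: each of the 9386 symbols found in RefSeq GRCh38.p14 overlapped its RefSeq gene. How the score was normalized is not given in the sources used here. All 12 libraries share a median of 106 and a minimum of 11, so a change common to all genes cannot be seen, no depth or counting interval was computed, and no listed gene falls below that minimum in any library.

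Values were analysed as log2(value + 1), which slightly understates changes of low genes, with limma 3.58.1 in R 4.3.3. One model of 6 group means over 12 libraries was fitted (6 residual and 5.29 prior degrees of freedom), with an intensity trend. Genes needed a value of at least 1 in 2 libraries, which removed 0. P-values are two-sided and adjusted by Benjamini-Hochberg over 9497 genes. Tests were checked on simulated data. Exact permutation tests used scipy 1.17.1.

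Members, lists and rules were chosen with earlier results of these data known. Named were the members with the 5 largest fold changes a direction in each comparison over both days or genotypes, the catalytic core, paralogue sets, ATP5IF1 and JUN, and from each neighbouring list genes past the test and examples from the 2 largest a direction. Named outside this rule, after their values were seen, were genes that single libraries or non-overlap brought out (NDUFA6, COX6A1, UQCRB, NDUFB2, NDUFB11, ATP5F1D and their like). Promoters came from RefSeq, 1 per symbol. Alternatives varied the pseudocount, filter, normalization, trend, library weights, samples fitted, replicate block and the libraries left out. Leaving out WT day 25 replicate 1 and KO day 30 replicate 2 together was added after seeing the data. The totals include 1 gene whose own result is not reported here. The ATAC-seq and the CUT&Tag samples of the series were not used here.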

Additional observations from a re-analysis of the deposited data

How the results depend on the processing

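Some alternatives left out no library of the groups compared: those of pseudocount, filter, normalization, trend, replicate block, library weights and samples fitted. Over these, the members' median fold change moved by less than 0.191, the spread between replicates, in 109 of 109 results. The count of members called stayed at 0 in 106 of 109. Much of this stability was fixed in advance. The main filter removed 0 genes, so dropping it repeated the main fit. All libraries shared the same median, minimum and maximum, so median centring and quantile normalization could move little. The trend, the replicate block and the samples fitted leave the differences between group means as they are. Library weights did so too, being equal within each group. These settings could thus change which members were called, but not the medians. The 3 that gained a call were OE against WT over both days, with 1 under library weights and 1 with only the libraries compared, and OE against WT at day 30, with 1 under library weights, in each case ATP5MC2, where 3.05%, 1.94% and 0.716% of all genes were called.

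With 1 library left out, the count of members called ran from 0 to 10 in KO against WT over both days, 0 to 9 at day 30, 0 to 12 in OE against KO over both days, 0 to 1 at day 25, 0 to 10 at day 30, 0 to 1 between the days and 0 to 3 for the KO effect at day 30 minus at day 25. The highest counts came without KO day 30 replicate 1, except at day 25. In those fits the share of all genes called was, in the same order, 13.8%, 13.4%, 23%, 3.21%, 17.8%, 1.48% and 1.99%. The median ran from 0.19 to 0.65 in KO against WT at day 25, -0.44 to -0.0288 in OE against KO at day 25, 0.00967 to 0.46 in OE against WT at day 25 and -0.58 to -0.13 for the KO effect at day 30 minus at day 25. Without both WT day 25 replicate 1 and KO day 30 replicate 2, an alternative added after seeing the data, these medians were 0.19, -0.17, 0.00967 and -0.12, and 1 member, NDUFS7, was called in OE against KO at day 25, where 2.21% of all genes were. The cause was not tested.

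Some small differences changed sign when 1 library was left out. In KO against WT, ATP5MJ ran from -1.16 (called without KO day 30 replicate 1, limma adjusted p = 0.014) to 0.080 (0.080 also with both libraries above left out). In OE against WT, NDUFV1-DT ran from -0.61 to 0.15 (0.15 with both left out), SDHD from -0.29 to 0.028, COX16 from -0.40 to 0.21 (0.044 without OE day 25 replicate 1), and PPARGC1A from -0.26 to 0.15 (0.10 with both left out). Between the days, NDUFA9 ran from -0.23 to 0.0051 and NDUFB3 from -0.34 to 0.12. ATP5MJ was the only one of these called under any of these settings.

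Replicate numbers are shared between the groups but give no shared batch or culture, and the deviations of same-numbered libraries correlated between -0.21 and 0.26, so they share only a number. With the number as a replicate block, 0 members were called in each of the 11 comparisons. Depth could not be recovered, and with 2 libraries a group and KO replicates far apart, small shared shifts cannot be separated from single libraries.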
